A study of Arabidopsis thaliana with 12 samples.

Results

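Alternative 3′ splice sites are pairs of positions at which the same intron can end, so that the exon that follows begins earlier or later. The 485 pairs described here, in 460 genes, were chosen by the authors' event type and by the false discovery rates (FDR) at which the authors listed them, all under 0.05, in the tables of chilled smeb and of chilled Col-0 seedlings. They are the union of both tables, with 1 entry per gene and position, out of 1891 listed events of all kinds in 1491 genes. The measured values that chose them are therefore the listed FDR values, and these are given below as a description.

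The libraries came from 12-day-old seedlings of Arabidopsis thaliana, of the mutants smeb-1 and smeb-2 and of wild-type Col-0. Each genotype was kept at 4 °C or at 22 °C for 24 h, which gave 6 groups of 2 replicates and 12 libraries, although the treatment protocol describes the control as 0 h at 4 °C. The labels do not say whether the replicates came from separate cultures, nor which groups or alleles each table sets against each other. SmEb, the gene altered in both mutants, encodes an Sm protein, and rings of such proteins assemble on spliceosomal snRNAs.

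The tables give a gene, a kind, a position and a pair of p-values per event, with no value per library, no count and no direction. The depth is unknown, an event is therefore called listed and never higher or lower, and an event missing from a table may have been tested without passing, not tested, or left out of the list after passing. The labelled tissue could not be checked against marker genes, for which expression levels would be needed.

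An intron ends in AG, usually behind a tract rich in pyrimidines. The large subunit of U2AF binds that tract and the small subunit binds the AG, which brings U2 to the branch point. A second AG nearby can compete for the same step, and the choice between them adds or removes a stretch at the start of the exon. SR proteins bind exons and promote the use of neighbouring sites, and many plant SR genes are themselves alternatively spliced. When a form gains a stop codon well before its last exon junction, nonsense-mediated decay can degrade it.

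The sequences below show how near to each other both sites of a pair can lie, for genes whose pairs are described later. Each runs 5′ to 3′ on the strand of the gene, from 20 bases before the upstream AG to 10 exon bases after the downstream AG, and capitals mark the AG of both sites. They were read from the TAIR10.1 reference. GGH2 lies at chr1:29594703-29594739 (plus strand), AMY3 at chr1:26291992-26292030 (minus), AGO1 at chr1:17890634-17890671 (minus), VRN2 at chr4:9479081-9479118 (plus), PPL1 at chr3:20514845-20514885 (minus), GRP7 at chr2:9265640-9265686 (minus), SR45 at chr1:5677346-5677398 (minus) and SNRK2.3 at chr5:26712244-26712286 (plus).
GGH2: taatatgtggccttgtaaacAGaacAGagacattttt
AMY3: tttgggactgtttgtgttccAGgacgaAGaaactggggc
AGO1: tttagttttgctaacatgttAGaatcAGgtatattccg
VRN2: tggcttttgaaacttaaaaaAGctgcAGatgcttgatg
PPL1: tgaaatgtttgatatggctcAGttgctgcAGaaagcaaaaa
GRP7: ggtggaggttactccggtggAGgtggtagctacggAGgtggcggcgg
SR45: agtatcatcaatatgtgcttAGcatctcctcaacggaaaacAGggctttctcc
SNRK2.3: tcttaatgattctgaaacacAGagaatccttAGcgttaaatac
In these 8 stretches the later AG follows the earlier one within 5 nt in GGH2 and within 21 nt in SR45.

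For 5 genes of splicing factors the sites lie too far apart for 1 stretch, so each site is shown alone, with 24 bases of intron and 6 of exon and the AG in capitals. They are shown because these genes act on splice site choice themselves and because some are paralogs. The SR34 sites lie at chr1:628911-628940 and chr1:629264-629293 (plus strand). The SR30 sites lie at chr1:2943559-2943588 and chr1:2943221-2943250, the RS2Z32 sites at chr3:19836125-19836154 and chr3:19835907-19835936, the RS2Z33 sites at chr2:15671813-15671842 and chr2:15671595-15671624, and the ATU2AF65A sites at chr4:17294598-17294627 and chr4:17294425-17294454, all on the minus strand.
SR34 upstream: ttcactaatttacattgctgctAGatggat
SR34 downstream: gtttcttttcttggacttttgcAGatcgcg
SR30 upstream: tgtattgcgttgtttgttttctAGatctgg
SR30 downstream: atggggtttttggtcttgctgcAGgtccca
RS2Z32 upstream: ttaacttgaatgatcttgttgaAGgtttct
RS2Z32 downstream: attttctggcaacaatttacgcAGagtacg
RS2Z33 upstream: ttaacttgaatgatcttattgaAGgtctct
RS2Z33 downstream: ttctgccaacaatttcttccgcAGagtgcg
ATU2AF65A upstream: tttcttggttgtgctgttttacAGcctttt
ATU2AF65A downstream: tgttctttaactcttaaaatgcAGgtgctt
RS2Z32 and RS2Z33 are paralogs with the same distance of 218 nt between their sites, and 28 of 30 bases are identical in the upstream stretch, against 18 of 30 in the downstream one. For SR34 and SR30, 13 of 30 bases are identical upstream and 15 of 30 downstream. These counts compare the stretches position by position from the AG, without gaps. Both RS2Z downstream stretches hold caacaattt at different distances from the AG, which such a count misses. The lower downstream count therefore does not measure how far those stretches have diverged.

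Of the pairs, 307 were listed for smeb and 388 for Col-0. Of events of all kinds, 13.2% of 10308 in the smeb table and 13.8% of 9710 in the Col-0 table were listed, where the number tested was recovered from the authors' p and FDR values. That number put 88.4% of smeb and 85.3% of Col-0 events with values above 0 on a whole rank, so these numbers are estimates. By the same recovery the last listed event stood at rank 1693 in the smeb table and at rank 1346 in the Col-0 table, so 334 ranks up to the last listed event (19.7%) are not in the smeb table, against 7 (0.52%) in the Col-0 table. A pair in the Col-0 table alone can therefore be one that passed in smeb and was not listed, and the 2 listed shares do not have the same basis. The number tested is not known by kind, so no share of tested 3′ splice sites can be given. Both tables listed 210 pairs, the smeb table alone 97 and the Col-0 table alone 178. Whether the tables share libraries is not stated, so the number in both is given as the rule fixes it.

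Pairs in both tables had lower FDR values than pairs in 1 table. In the authors' deposited smeb table the FDR was 0 for 35 of 210 pairs in both tables (16.7%) and for 6 of 97 in that table alone (6.19%), and it was under 0.01 for 83.8% and 58.8%. In the authors' deposited Col-0 table it was 0 for 42 of 210 pairs in both (20%) and for 6 of 178 in that table alone (3.37%), and under 0.01 for 78.6% and 43.8%. The median FDR was 0.000219 for pairs in both and 0.00424 for smeb alone in the authors' deposited smeb table, and 0.000557 for pairs in both and 0.0130 for Col-0 alone in the Col-0 table. The pairs nearest the limit had FDR values of 0.0492 in the authors' deposited smeb table and 0.0490 in the Col-0 table, and pairs beyond it are not in the tables. Since the FDR chose the pairs, these values describe the lists.

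**Figure D1:**
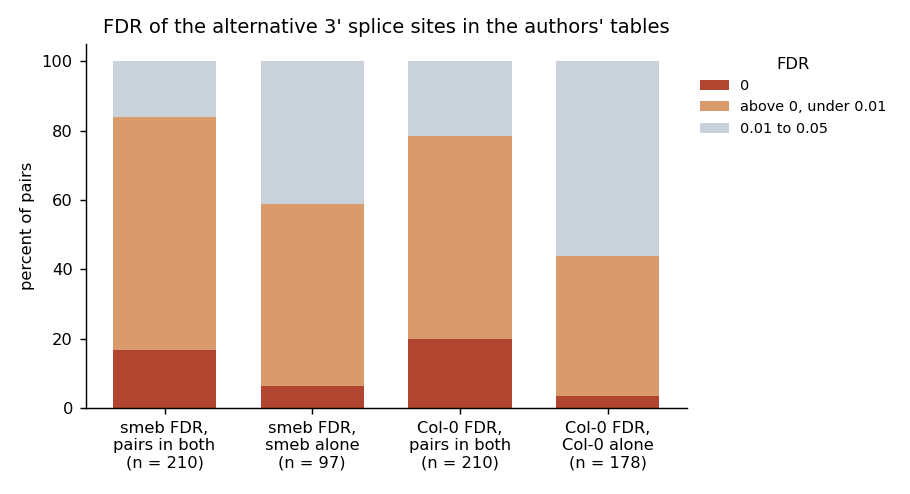
Percent of alternative 3′ splice sites by FDR in the authors' smeb table (left pair of bars) and Col-0 table (right pair), for pairs in both tables and in that table alone, with colours for an FDR of 0, up to 0.01 and up to 0.05. Values under 0.01 make up 83.8% and 58.8% of the smeb bars and 78.6% and 43.8% of the Col-0 bars.

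Most pairs were close together. The distance ran from 5 to 1542 nt with a median of 21 nt and quartiles of 9 and 48 nt, beside a median of 35 nt for alternative 5′ splice sites. The median was 20.5 nt for pairs in both tables, 25 nt for smeb alone and 19 nt for Col-0 alone. A distance of 5 nt was the most frequent, with 49 pairs, followed by 6 nt with 21, 7 nt with 20 and 9 nt with 20, and 48 pairs were over 100 nt apart. No pair was under 5 nt, although 651 of 4976 annotated pairs in the reference lie 3 nt apart and 124 lie 4 nt apart. Whether shorter distances were tested is not given in the sources used here.

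At most 12 nt separated 161 of 485 alternative 3′ splice sites (33.2%), against 71 of 349 alternative 5′ splice sites (20.3%), which is 12.9 points more (95% interval 6.90 to 18.8, p = 0.00031 by a two-sided Fisher's exact test with Benjamini-Hochberg adjustment over 7 tests). The difference kept its direction and its side of the threshold under each of the FDR, gene, motif and distance alternatives run, and was 6.12 points for distances of at most 6 nt. Events are the units of this and the following tests, so a p-value does not measure the spread between libraries. Annotated 3′ pairs of the reference 5 nt or more apart were this short in 898 of 4165 cases (21.6%). Annotated 5′ pairs were so in 335 of 3971 (8.44%), so the reference as a whole differs in the same direction. The difference is thus not particular to the listed events. Between the classes, 30 of 97 smeb-alone pairs (30.9%) and 59 of 178 Col-0-alone pairs (33.1%) were this short, a gap of −2.22 percentage points (interval −13.7 to 9.29, adjusted p = 0.92 by Fisher's exact test). That interval leaves room for a difference in either direction.

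**Figure D2:**
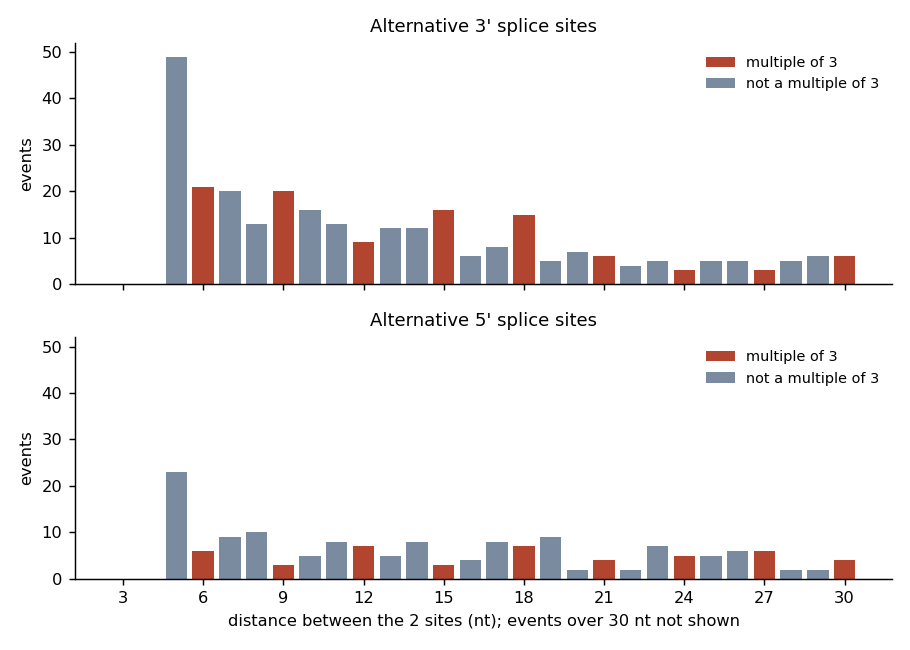
Number of events at each distance between the 2 sites (nt, up to 30) for alternative 3′ splice sites (upper panel) and alternative 5′ splice sites (lower panel), with multiples of 3 in red and other distances in grey. The 3′ splice sites peak at 5 nt with 49 events, and nothing lies under 5 nt in either panel.

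AG stood at both sites of 447 of the 485 pairs on the strand of the listed gene. Among the other 38, AG stood at 1 site in 31, and in 25 of these the other site had AC, which is GT on the opposite strand. Of the 31, the AG site was annotated in 28. MAP65-8 (AT1G27920), which binds microtubules, is such a case: its sites are 36 nt apart, CAG stands at the annotated downstream site and AAC at the other. BGAL8 (AT2G28470), a beta-galactosidase, has CAG at its annotated upstream site and TAC 42 nt further on. Which strand these reads came from was not tested.

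At downstream sites the base before the AG was more often C. It stood there at 287 downstream sites (59.2%) and 186 upstream sites (38.4%), beside 62.8% of 132132 annotated acceptors. T stood there at 117 downstream sites (24.1%) and 183 upstream sites (37.7%), beside 28.2%. A stood there at 55 downstream sites (11.3%) and 84 upstream sites (17.3%), beside 7.47%. Where the upstream site was not annotated, 49 of 180 (27.2%) had C, against 137 of 305 (44.9%) where it was. All these shares are of sites with or without AG. The 180 include sites without AG, among them 12 with TAC, which lower their share, against 0 with TAC among the 305.

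A log2 odds score of the last 15 intron and first 2 exon bases, built on all annotated acceptors, put both sites of the pairs low. Its median was 5.51 at upstream sites and 5.77 at downstream sites of the 447 pairs with AG at both, beside 7.20 over all annotated acceptors. In pairs with the upstream site alone annotated the medians were 6.35 upstream and 4.98 downstream, and with the downstream site alone annotated they were 4.68 upstream and 6.10 downstream. Since annotated acceptors built the score, an annotated site scoring above its unannotated partner is not independent of it. In pairs up to 12 nt apart the downstream site scored higher in 89 of 151 (58.9%), and in longer pairs in 146 of 296 (49.3%). VRN2 (AT4G16845), a Polycomb protein needed for the memory of vernalization, had the low score of −1.72 at its upstream site, which follows a run of A, and 4.95 at the annotated downstream site. AMY3 (AT1G69830), an alpha-amylase of plastids, had 9.99 at the annotated upstream site and 1.31 at the other.

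**Figure D3:**
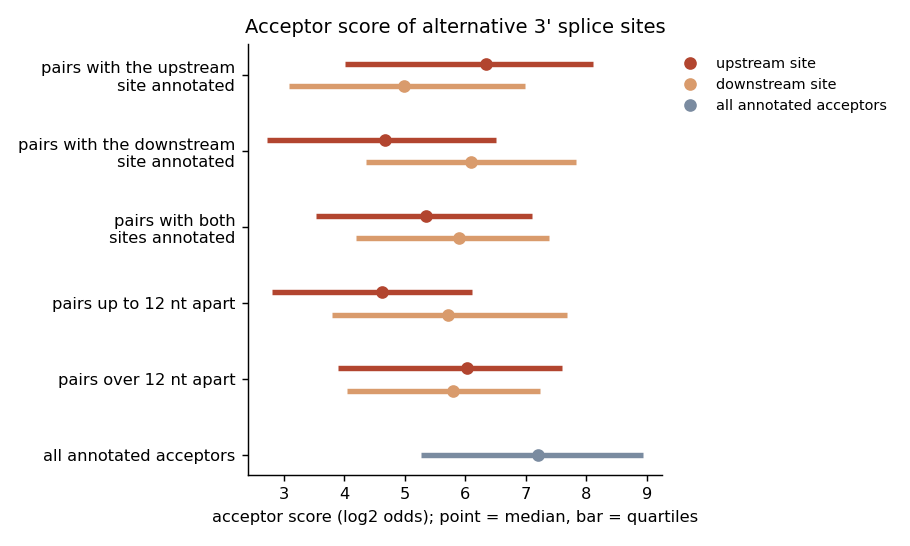
Acceptor score (log2 odds) at the upstream site (red) and downstream site (orange) of pairs with AG at both, by which sites are annotated and by distance, and over all annotated acceptors (grey); points are medians and bars run between the quartiles. The annotated site of a pair with only 1 annotated site has the higher median, 6.35 against 4.98 and 6.10 against 4.68.

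A further AG between the sites was rare in near pairs. It was lacking in 137 of 151 pairs up to 12 nt apart (90.7%), in 86 of 122 pairs of 13 to 30 nt (70.5%) and in 27 of 174 longer pairs (15.5%). A shorter stretch has less room for an AG, and no share to be had from length alone was computed. In most near pairs the listed sites are thus consecutive AGs, as in GGH2, AGO1 and PPL1 above.

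Both sites were annotated intron ends in 180 pairs, the downstream one alone in 161, the upstream one alone in 125, and neither in 19. Both were annotated in 37.1% of the 485, against 38.7% of the alternative 5′ splice sites, a gap of −1.57 percentage points (interval −8.25 to 5.11, adjusted p = 0.92 by Fisher's exact test). Among smeb-alone pairs the count was 30 of 97 (30.9%), against 70 of 178 (39.3%) of Col-0-alone pairs, a gap of −8.40 percentage points (interval −20.1 to 3.27, adjusted p = 0.47 by Fisher's exact test).

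Of the 485 pairs, 355 lay in coding sequence, 75 in a 5′ UTR, 16 in a 3′ UTR, 13 across an end of the coding sequence and 7 in non-coding genes, and 19 had no annotated site. Both sites were annotated in 53 of 75 pairs in a 5′ UTR (70.7%), against 107 of 355 in coding sequence (30.1%), a gap of 40.5 percentage points (interval 29.2 to 51.9; p = 4.1e-10 by Fisher's exact test, adjusted over 3 tests chosen after the data were seen). TLP2 (AT2G18280), a tubby-like protein, has such a pair 32 nt apart with FDR 0 in both of the authors' deposited tables. SKIP (AT1G77180), a spliceosome component that also takes part in clock regulation, has one 176 nt apart with FDR 0.00131 (smeb) and 0.000545 (Col-0) in the authors' deposited tables. ATSPS4F (AT4G10120), a sucrose-phosphate synthase, and RHB1A (AT4G00335), a RING-H2 finger protein, have theirs 10 and 18 nt apart, both for smeb alone, and KINESIN-13A (AT3G16630), a motor protein, has a pair 9 nt apart for Col-0 alone, of which the upstream site alone is annotated. Among alternative 5′ splice sites, both sites were annotated in 50 of 211 coding pairs (23.7%), against 38.7% of all 349. The lower share in coding sequence is thus not particular to 3′ splice sites, though this was not tested.

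The distance was a multiple of 3, which within coding sequence keeps the reading frame, in 164 of 485 pairs (33.8%), with a remainder of 1 in 142 and of 2 in 179. For alternative 5′ splice sites it was 103 of 349 (29.5%), a gap of 4.3 percentage points (interval −2.07 to 10.7, adjusted p = 0.47 by Fisher's exact test). Of the smeb-alone pairs 33 of 97 (34.0%) had such a distance, against 62 of 178 (34.8%) of the Col-0-alone pairs, a gap of −0.811 percentage points (interval −12.6 to 10.9, adjusted p = 1 by Fisher's exact test). Among pairs in both tables it was 69 of 210 (32.9%), against 95 of 275 (34.5%) of pairs in 1 table (adjusted p = 0.92 by Fisher's exact test). These counts include pairs outside coding sequence, such as 24 multiples of 3 in 5′ UTRs, and among coding pairs with both forms read it was 24 of 72 for smeb alone and 44 of 127 for Col-0 alone. The annotated pairs of the reference that lie 5 nt or more apart held 43.7% multiples of 3 among 4165.

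Multiples of 3 were more frequent where both sites were annotated. There, 88 of 180 distances (48.9%) were multiples of 3, against 76 of 305 (24.9%) of the other pairs, a gap of 24.0 percentage points (interval 15.2 to 32.7; p = 1.7e-07 by Fisher's exact test, adjusted over the same 3 tests). Annotated pairs of the reference 5 nt or more apart held 43.7% for 3′ and 41.7% for 5′ splice sites. A high share in annotated pairs is thus not particular to the listed events. HYH (AT3G17609), a bZIP factor of light signalling related to HY5, has both sites annotated 45 nt apart and codes for 149 codons with the upstream site and 134 with the downstream one. SR45 (AT1G16610), an SR-like splicing factor, has both annotated 21 nt apart, with 425 and 418 codons. BTR1L (AT5G04430), an RNA-binding protein, has them 63 nt apart, with 334 and 313 codons, and SRT2 (AT5G09230), a sirtuin deacetylase, 39 nt apart, with 389 and 376 codons.

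Both forms could be read from the start codon in 354 coding pairs, in the transcript of the longest coding sequence that holds a site. A stop codon over 50 nt before the last exon junction, called early here, arose in 1 form alone in 241 of them (68.1%, 95% Wilson interval 63.1 to 72.7). It lay in the upstream form, which has the longer exon, in 151 and in the downstream form in 90. This split is not independent of which site is annotated. Among the 355 coding pairs the downstream site alone was annotated in 148 and the upstream site alone in 100. Neither form had an early stop in 104 pairs, and both forms had it in 9. A form cut short in the last exon cannot count as early, as in COL2, HSFC1 and PDE334 below. In AGO1 and in LCL1 below, both among the 9, the annotated stop codon itself lies over 50 nt before the last exon junction. In none of the 241 did the annotated form of the transcript used carry the early stop, which follows in part from the choice of the longest coding sequence. Whether any of these RNAs is degraded was not tested.

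Pairs that shift the frame had an early stop in 1 form in 207 of 233 (88.8%), and pairs that keep it in 34 of 121 (28.1%). In 33 of those 34 the stop lay in the upstream form, so within or at the border of the added stretch. The other is PPL1 (AT3G55330), a PsbP-like protein of photosystem II repair, in which the downstream form loses 9 nt and reads 72 codons, against 230 with the upstream site. By class, 110 of 155 pairs in both tables (71.0%), 52 of 72 listed for smeb alone (72.2%) and 79 of 127 listed for Col-0 alone (62.2%) had an early stop in 1 form.

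**Figure D4:**
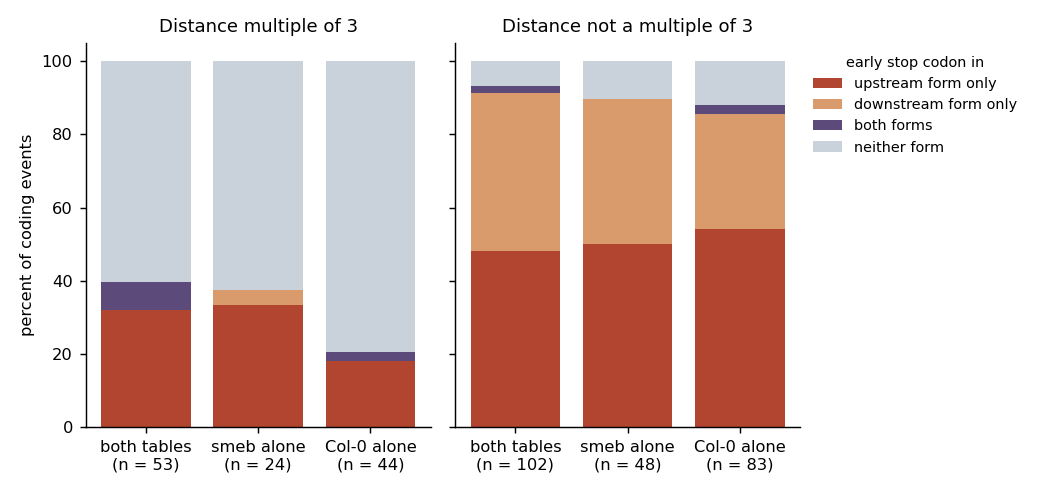
Percent of coding pairs with an early stop codon (over 50 nt before the last exon junction) in the upstream form, the downstream form, both or neither, for distances that are multiples of 3 (left) and others (right), by listing in both tables, smeb alone and Col-0 alone. An early stop in 1 form stands in 28.1% of frame-keeping and 88.8% of frame-shifting pairs.

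Among the genes of lowest FDR in both tables, SNRK2.3 (AT5G66880), a kinase activated by abscisic acid, held 2 pairs. The first adds 42 nt before exon 3 and keeps the frame, but reads 66 codons with the upstream site, against 361 with the annotated downstream one. It stood at FDR 0 in both of the authors' deposited tables. The second, in exon 9, is 11 nt wide and was listed in smeb alone with FDR 2.14e-08 in the authors' deposited table. There the unannotated downstream site reads 233 codons.

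GGH2 (AT1G78680), a gamma-glutamyl hydrolase of folate metabolism, has sites 5 nt apart in exon 4, of which the annotated upstream one reads 347 codons and the other 170. AMY3 has 7 nt in exon 5, with 887 codons from the annotated upstream site and 211 from the other. AGO1 (AT1G48410), the main Argonaute of microRNA silencing, has 6 nt and both sites annotated, and the forms of 1050 and 1048 codons differ by 2 codons. COL2 (AT3G02380), a CONSTANS-like protein, has 122 nt, with TGC in place of AG at the upstream site, which lies 21 nt behind the annotated start of the intron. All of these pairs stood at FDR 0 in both of the authors' deposited tables.

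GRP7 (AT2G21660) encodes a clock-regulated protein that binds RNA and ends in glycine-rich repeats. It has sites 15 nt apart with GAG at both, and the forms read 159 and 154 codons. Both AGs are followed by the same bases GTGG within the repeats that code for its glycine-rich end. The same pair was 1 of 2 alternative 3′ splice sites among 34 events in the table of smeb under normal conditions. The other, in the non-coding gene AT5G53048, spans 12 nt and had FDR 0.00787 in the authors' deposited table, and it is in neither chilling table.

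Of pairs in smeb alone, SR30 (AT1G09140) and HSFC1 (AT3G24520), a heat shock factor, stood at FDR 0 in the authors' deposited table. In HSFC1 the sites are 55 nt apart, with TAC at the upstream site. PDE334 (AT4G32260), a subunit of the chloroplast ATP synthase, has 20 nt, with TGG at the upstream site. Of pairs in Col-0 alone, NSI (AT1G32070), an acetyltransferase first found as a nuclear shuttle interactor, has 13 nt and reads 165 codons with the upstream site, against 258 with the annotated one. PBCP (AT2G30170), the phosphatase of photosystem II core proteins, has 16 nt with 69 and 298 codons. BCA6 (AT1G58180), a beta carbonic anhydrase, and SCPL13 (AT2G22980), a serine carboxypeptidase-like protein, each have sites 8 nt apart. VRN2 has 6 nt, with 442 and 440 codons, and NFD6 (AT2G20585), named for a defect of nuclear fusion, has 255 nt with 95 and 100 codons.

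Most pairs in genes of splicing factors were long, with SR45 as the exception among the SR genes. Of 20 SR protein genes with an intron, 5 had an alternative 3′ splice site listed, beside 1.9% of the 24197 genes with an annotated intron, and their median distance was 218 nt. An event of any kind was listed in 12 of the 20, beside 6.13% of the 24197, so the high share is not particular to 3′ splice sites. Both shares count every annotated gene with an intron, tested or not. SR34 (AT1G02840) is listed in both tables with 353 nt and FDR 0 in both of the authors' deposited tables, and SR30 in smeb alone with 338 nt. In both, exon 11 follows, both sites are annotated and the upstream form carries the early stop, with 285 against 303 codons in SR34 and 256 against 268 in SR30.

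RS2Z32 (AT3G53500) and RS2Z33 (AT2G37340), SR proteins with zinc knuckles, have sites 218 nt apart before exon 3. The upstream form reads 54 codons against 284 in RS2Z32 and 60 against 290 in RS2Z33. RS2Z32 is listed in both tables with FDR 0 in the authors' deposited tables, and RS2Z33 in smeb alone at 3.79e-08. SR45 is in Col-0 alone with FDR 0.0455 in the authors' deposited table.

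ATU2AF65A (AT4G36690), the large subunit of U2AF and so a reader of 3′ splice sites, was the 1 of 9 genes of factors that recognise the 3′ splice site to hold a pair. Its sites lie 173 nt apart before exon 12, with FDR 0 in both of the authors' deposited tables, and read 565 and 573 codons, with the early stop in the upstream form. SKIP was the 1 of 23 genes of the spliceosome core. Of 12 genes of hnRNP-like and other RNA-binding proteins, GRP7 and UAP56b had pairs, and of 4 genes of nonsense-mediated decay none did. An event of any kind was listed in 9 of the 12, beside 6.13% of all genes with an intron. The share with a pair over all genes with an intron is 1.9%, so counts of 0 or 1 in lists of this length say nothing particular about them.

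UAP56b (AT5G11200), a DEAD-box helicase that acts in splicing and mRNA export, has a pair of 136 nt at exon 4 in Col-0 alone, with 75 codons against 486. A further pair of 136 nt listed for UAP56b lies in its near-identical neighbour AT5G11170, and reads that fit both copies cannot be told apart by position alone.

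Of 19 clock genes with an intron, 3 held a pair, beside 1.9% of all genes with an intron. Among all 20 clock genes of the list, 10 had an event of any kind, beside 6.13% of all genes with an intron. PRR5 (AT5G24470), a repressor of the clock, has 47 nt in both tables, with 223 codons in the upstream form against 558. LCL1 (AT5G02840), also called RVE4, a MYB factor of the clock, has 22 nt in both tables, with 293 and 283 codons. LNK2 (AT3G54500, a synonym in the reference), a partner of such MYB factors, has 43 nt in both tables and 37 nt in Col-0 alone, and in each the downstream form is cut short, to 188 and 37 codons. Of 19 light signalling genes, HYH and COP1 (AT2G32950), a ubiquitin ligase that represses light responses, held a pair, beside the same 1.9%. An event of any kind was listed in 7 of these 19 genes, beside the same 6.13%. In COP1 the upstream site adds 409 nt and reads 391 codons, against 675, and was listed in Col-0 alone with FDR 0.0126 in the authors' deposited table.

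Of 18 genes of abscisic acid signalling, SNRK2.3 held pairs. None was listed among 21 cold response genes, 12 photosynthesis genes or 5 polyubiquitin genes, beside the 1.9% of all genes with an intron. The lists do not hold every gene of a function. PPL1, PBCP and PDE334, described above as genes of photosystem II or the chloroplast ATP synthase, held pairs outside the photosynthesis list. GRP7, whose description names cold and circadian rhythm, stands in the list of RNA-binding proteins. Among all 26 cold response, 13 photosynthesis and 5 polyubiquitin genes of the lists, with or without an intron, 4, 4 and 3 had an event of another kind. The share of all genes with an intron that had an event of any kind is 6.13%. By words in the gene descriptions, RNA binding or splicing took 22 of 460 genes with a pair (4.78%), against 42 of 1031 other listed genes (4.07%). Kinases or phosphatases took 37 (8.04%) against 85 (8.24%), transcription factors 18 (3.91%) against 43 (4.17%), and genes described as unknown 71 (15.4%) against 119 (11.5%).

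Of the 460 genes, 25 held 2 pairs and none held more, and 126 (27.4%) also had an event of another kind, with a cassette exon in 61, a retained intron in 43 and an alternative 5′ splice site in 41. In 20 pairs a site was also an end of a listed retained intron. Of smeb-alone pairs, 39 of 97 (40.2%) lay in a gene with another kind listed, against 38 of 178 (21.3%) of Col-0-alone pairs, a gap of 18.9 percentage points (interval 7.39 to 30.3; p = 0.0012 by Fisher's exact test, adjusted over the same 3 tests). At an FDR under 0.01 the gap was 9.92 points, with an adjusted p of 0.26 by the exact test. At an FDR under 0.001 the gap was −7.29 points, with an adjusted p of 0.61. Alternative 5′ splice sites differed in the same direction, with 37 of 83 for smeb alone (44.6%) against 37 of 121 for Col-0 alone (30.6%), which was not tested.

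Positions of 15 pairs lie outside the listed gene, 9 of them on another chromosome. In 5 the gene at the position shares a name with the listed one in the reference, among them PHR1, ATX1, PHS1 and PYM. SK3 (AT2G25700) and SULA (AT2G21280), named among the lowest FDR values, are 2 of the 15, with positions in AT3G05840 and AT5G05930. In 9 of the 15, AG stands at both sites on the strand of the gene at the position. The listed gene of all 15 is uncertain.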

How the data were processed

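The submitters' processing notes name Trimmomatic 0.32, TopHat2 2.0.13 and the build TAIR10. They name no event caller, filter or strand handling. The authors deposited 7 tables; the 2 chilling tables hold p-values and FDR values per event, per the file headers. No column holds values per library (0 such columns were left unused), so no test across samples, standard deviation or depth could be given, and precision is unknown.

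The first exon base of each form was taken from the listed positions, so the distance is end minus start. Genes, transcripts and sequences come from the TAIR10.1 annotation, whose coordinates are those of TAIR10; sites were read in the transcript of the longest coding sequence. The number tested was recovered from p and FDR under the Benjamini-Hochberg rule (rank tolerance 0.0001). Shares were compared with Fisher's exact test, two-sided (scipy 1.17.1, pandas 2.3.3, Python 3.11.15), adjusted over 7 tests, and over 3 chosen after seeing the data. The procedures were tested on simulated data.

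Members, gene lists and tests were chosen with earlier results of these data known. Genes named are up to 10 with a reference symbol per class by lowest FDR, and every listed member of the gene lists. Sequences are those of such genes in coding sequence, up to 30 nt apart with AG at both sites, of which 8 are printed. The splicing factor stretches were chosen after their values were seen. Alternatives were stricter FDR limits (0.01, 0.001), 1 event per gene, events inside the gene, with AG at both sites or in the coding span, and other distance limits.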

Additional observations from a re-analysis of the deposited data

Results flagged for a closer look

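The share of alternative 3′ splice sites in a gene with another kind of event listed differed between the classes: it was 18.9 percentage points higher among smeb-alone pairs than among Col-0-alone pairs (39 of 97 against 38 of 178; adjusted p = 0.0012 by a two-sided Fisher's exact test). It stands here because the difference itself passed a test. It did not hold at stricter FDR limits, and the tables give no value per library against which to set it. The share was also higher for smeb alone among alternative 5′ splice sites (44.6% against 30.6%, not tested), so it is not particular to 3′ splice sites.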

How the results depend on the processing

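Of 76 alternatives, 65 were classed as the same, but 20 of these moved the value by over 1.5 times. For a test, the same means the same direction and side of the threshold. The 76 also include event counts and early-stop percentages, which have no test. In 19 of the 20 the test passed no threshold before or after; the other is the short share minus that of alternative 5′ splice sites, 6.12 points at 6 nt. Of smeb-alone minus Col-0-alone pairs, the frame share was −10.6 points at an FDR under 0.001, and the short share −9.72 points at an FDR under 0.01 and −0.249 points inside the listed gene. With AG or GT at both sites the both-sites-annotated share minus that of alternative 5′ splice sites was −6.68 points. At an FDR under 0.01 the frame share of smeb-alone minus Col-0-alone pairs was 3.17 percentage points. At the same limit the share in genes with another kind was 9.92 points. These 2 shares rest on 57 smeb-alone and 78 Col-0-alone pairs, with the classes of the full lists. Sorted anew by the table in which a pair stayed under 0.01, Col-0 alone held 99 pairs, some of them listed in both tables. At an FDR under 0.001 the both-sites-annotated share minus that of alternative 5′ splice sites was 3.51 points, and the share in genes with another kind was −7.29 points. Sorted anew by this limit, 218 pairs were left in all, 87 in both tables and 59 in Col-0 alone. These counts are not the sets behind the 2 shares. With AG at both sites the short share of smeb-alone minus Col-0-alone pairs was 2.59 points. Within the coding span the frame share of pairs in both tables minus pairs in 1 table was 0.194 points. In the first transcript by name, 63.0% of coding pairs had an early stop in 1 form. Fewer events enter under the stricter limits; other causes were not tested. No paired analysis was possible because the tables hold no values per library, and for the same reason no replicate could be left out. The depth limits no value in a known way, since it is unknown.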
